A study of Mus musculus with 8 samples.

Results

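The genes described here are the expressed numbered zinc finger protein genes of mouse bone marrow-derived macrophages. They are the rows of the deposited expression table whose name is Zfp followed only by digits and whose mean over the 8 libraries was 2 or more CPM, the read count scaled to the library total and a normalization factor. Zfp36, whose protein binds RNA through fingers of another kind, was left out. The rule found 251 genes among 333 rows with such a name and 23366 rows in all. Of the rows left out for level, 81 had a mean under 2, and 31 of those were high enough to be tested. The genes were chosen by a measured value, the mean level over all 8 libraries, so their levels are given as a description. Just inside the threshold were Zfp532 with a mean of 2.00 CPM, Zfp934 with 2.02 and Zfp773 with 2.07. Just outside it were Zfp808 with 1.91, Zfp551 with 1.92 and Zfp273 with 1.96.

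Macrophages were grown from C57BL/6 mice that were wild type or homozygous for the Lsd1SA/SA knock-in, in which a serine of the histone demethylase LSD1 (gene Kdm1a) is replaced by alanine. Cells at passage 1 were held without serum for 24 h and either left untreated or given lipopolysaccharide (LPS), a bacterial outer-membrane component, for 2 h at a labelled dose of 1 mg/ml. Each of the 4 groups had 2 RNA-seq libraries, and for knock-in with LPS the titles give only the time while other labels name LPS. The comparisons ask how LPS changed the genes in either genotype, how the genotypes differed with and without LPS, and whether the LPS effect differed between genotypes. Whether replicates were separate cultures or mice is not stated in the labels. The p-values therefore reflect the spread between libraries, and that spread may be technical.

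Most proteins of this family bind DNA through C2H2 zinc fingers, small folds in which pairs of cysteines and histidines hold a zinc ion, and arrays of fingers read out a DNA sequence. The largest subgroup carries a KRAB domain, which recruits the scaffold protein KAP1 (Trim28) and through it the H3K9 methyltransferase SETDB1, heterochromatin protein 1 and the NuRD complex, and is best known for silencing retroelements and guarding imprinted genes. Members without KRAB include activators of housekeeping promoters, partners of corepressor complexes, and proteins that act on RNA or ribosomes rather than on DNA.

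The libraries held 40379258 to 55595160 reads, and the lowest read count of any of the 251 genes was 8. The 2 knock-in LPS libraries stood apart from the other 6. The summed level of 16 early LPS response genes was 24317 and 24791 CPM in wild type with LPS, 1023 and 1034 CPM in knock-in with LPS, and between 707 and 713 CPM in the 4 untreated libraries. Summed levels of 10 interferon response genes were 4617 to 5092 CPM in all 4 LPS libraries and 1101 to 1147 CPM in the untreated ones. These sums hide opposite differences. With LPS, limma called 5 of the 10 higher in the knock-in than in wild type and 4 lower (38.5% and 36.8% of all genes tested). Oas3 had group means of 195 CPM in wild type with LPS and 944 in knock-in with LPS, and Rsad2 of 1804 and 436. Xist was at 0.366 and 0.212 CPM in knock-in with LPS and at 315 to 437 CPM elsewhere, and those 2 libraries held 4993 and 5122 reads of 4 Y-linked genes, against at most 2 in any other. By these sex-linked transcripts the knock-in LPS libraries read as male and the other 6 as female, so sex and the combination of knock-in and LPS cannot be told apart. No value in the table checks the genotype label, since the knock-in replaces a residue and gene levels do not show it. Kdm1a had group means of 32.5 and 33.1 CPM in untreated wild type and knock-in, and of 46.5 and 39.9 CPM with LPS. With LPS the log2 difference was -0.22 (limma adjusted p = 0.00406), and without LPS it was 0.03. Whether the 2 knock-in LPS libraries are labelled correctly is therefore in doubt. Every value given for knock-in with LPS is that of the libraries so labelled. Of 10 macrophage markers, 9 were in the table. Their summed level was 17175 and 16834 CPM in wild type with LPS, 12962 and 12337 in knock-in with LPS and 13660 to 14390 untreated. Markers of other cells summed to 55.5 and 55.5 CPM for stromal cells in knock-in with LPS, against 14.3 to 18.9 elsewhere. Single markers within these sums went both ways. With LPS, limma called 3 of the 9 macrophage markers higher in the knock-in than in wild type and 6 lower. Of 6 stromal markers tested, 4 were called higher and 2 lower. Other markers moved with the groups too. Neutrophil markers summed to 747 and 767 CPM in wild type with LPS, 447 and 457 in knock-in with LPS and 351 to 359 untreated. Mast cell and basophil markers summed to 52.1 and 50.9 CPM in wild type with LPS, 80.8 and 82.8 in knock-in with LPS and 32.9 to 34.0 untreated. B and T cell markers were at 6.98 and 6.19 CPM in knock-in with LPS and at 9.20 to 12.1 elsewhere. Erythroid and megakaryocyte markers, most of it Pf4, were at 227 and 243 CPM in wild type with LPS, 160 and 168 in knock-in with LPS and 177 to 191 untreated. Lum, a fibroblast marker, had group means of at most 0.0452 CPM. The summed level of 10 cell cycle genes was 344 and 361 CPM in knock-in with LPS, 1073 and 1047 CPM in wild type with LPS, and 726 to 739 CPM in the untreated libraries. In bulk RNA, fewer cells of a type and less RNA per cell cannot be told apart. The part of any of these in the changes below was not tested.

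To show what lies upstream of genes that moved in different ways, 10 stretches of 100 bases around a motif match near a transcription start are printed. RefSeq windows on GRCm38.p6, from 250 bases before to 50 after a start, were found for 207 of the 251 genes (252 windows), and the stretches come from these. Capitals mark a match to a motif on either strand. The first set holds genes that rose with LPS in wild type, each with a GC box (GGGGCGGGG) or an NRF1 site whose searched letters are the 10 in capitals. The matches begin 137, 98, 103, 198 and 55 bases before the start in Zfp263, Zfp281, Zfp800, Zfp658 and Zfp719. Their places are chr16:3743917-3744016, plus strand for Zfp263, chr1:136624758-136624857, plus strand for Zfp281, chr6:28261973-28262072, minus strand for Zfp800, chr7:43562127-43562226, plus strand for Zfp658 and chr7:43579486-43579585, plus strand for Zfp719.
Zfp263: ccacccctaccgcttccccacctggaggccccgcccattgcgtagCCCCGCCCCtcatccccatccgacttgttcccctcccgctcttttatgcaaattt
Zfp281: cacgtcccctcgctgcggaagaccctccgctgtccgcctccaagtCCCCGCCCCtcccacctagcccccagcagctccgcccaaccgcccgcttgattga
Zfp800: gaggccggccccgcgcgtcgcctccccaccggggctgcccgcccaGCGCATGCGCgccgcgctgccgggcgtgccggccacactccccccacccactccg
Zfp658: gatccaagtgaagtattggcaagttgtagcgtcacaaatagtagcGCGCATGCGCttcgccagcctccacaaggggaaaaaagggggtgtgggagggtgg
Zfp719: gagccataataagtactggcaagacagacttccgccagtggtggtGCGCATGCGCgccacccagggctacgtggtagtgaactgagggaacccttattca

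The second set holds genes that fell with LPS in wild type, Zfp316 (chr5:143270023-143270122, minus strand) and Zfp60 (chr7:27731309-27731408, plus strand) with an ETS site (ACTTCCGG), and Zfp72 (chr13:74390830-74390929, minus strand), which also rose with LPS in the knock-in, with a cyclic AMP response element (TGACGTCA). The matches begin 34, 26 and 30 bases before the start. The window of Zfp263, in the first set, also holds an ETS site, 9 bases before the start and outside its printed stretch. The sets therefore do not show a split by motif.
Zfp316: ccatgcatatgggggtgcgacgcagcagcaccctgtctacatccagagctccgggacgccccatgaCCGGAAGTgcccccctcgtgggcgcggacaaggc
Zfp60: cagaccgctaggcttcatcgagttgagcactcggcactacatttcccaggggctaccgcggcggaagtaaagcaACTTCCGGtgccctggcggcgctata
Zfp72: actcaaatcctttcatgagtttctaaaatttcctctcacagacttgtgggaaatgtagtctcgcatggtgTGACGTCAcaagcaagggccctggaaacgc

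The third set is a pair of neighbours with near-identical coding sequences that were higher with LPS in the knock-in, Zfp429 (chr13:67399768-67399867, minus strand) and Zfp456 (chr13:67375764-67375863, minus strand), each with an NF-kB site (GGG, 2 free bases, TT, 1 free base, CC) that begins 28 and 26 bases before the start.
Zfp429: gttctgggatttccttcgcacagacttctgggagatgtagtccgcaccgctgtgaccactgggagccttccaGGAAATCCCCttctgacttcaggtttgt
Zfp456: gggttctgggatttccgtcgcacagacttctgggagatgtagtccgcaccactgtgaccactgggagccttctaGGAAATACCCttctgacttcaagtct

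The stretches of Zfp429 and Zfp456 were identical in 92 of 102 aligned columns, and those of the neighbours Zfp658 and Zfp719 in 49 of 100 columns. Shares of windows with a match describe the letters only. An NF-kB site was in 4.37% of the windows of the 251 genes and in 4.79% of all 32851 windows. The ETS site was in 11.5% against 3.89%, the cyclic AMP response element in 3.57% against 1.79%, the NRF1 site in 3.17% against 0.971% and the GC box in 11.9% against 11.4%. Fewer of the 252 windows than of all windows held TATAAA (5.16% against 13.6%) or the AP-1 site TGANTCA (3.57% against 7.81%). Matches to a YY1 site (1.59% against 0.633%), an interferon response element of GAAA repeated after 2 free bases (1.59% against 3.44%) and a serum response element (0% against 0.0639%) were rare. Overlap between motifs was not excluded. By LPS call in wild type, the ETS site was in 5 of 21 windows of the genes that rose and 19 of 190 windows of those that fell, the NRF1 site in 3 and 3, and the NF-kB site in 1 and 9. The median window had 16 CpG dinucleotides, against 7 in all windows, and a KRAB match went with 11 and no match with 21.

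Per kilobase of exon, the median of the 251 genes was 2.07 CPM, and the range ran from 0.223 (Zfp532) to 30.8 (Zfp703). Zfp488 (29.3 CPM per kb), Zfp263 (24.8), Zfp869 (17.5) and Zfp706 (17.4) followed. Without length, 70 genes had a mean under 5 CPM, 125 a mean from 5 to 20, and 56 a mean of 20 or more. In 191 genes every group had a mean of 2 or more, and 60 fell under 2 in at least 1 group. The latter were kept by their level in the other groups, so counts for the LPS comparisons and the interaction are also given without them. Counts by class, role and sequence feature include them. Genes named below that are among them include Zfp72, Zfp157, Zfp316 and Zfp324, which had means under 2 CPM in wild type with LPS.

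Summed over the 251 genes, the level was 4269 and 4334 CPM in untreated wild type, 3684 and 3578 in wild type with LPS, 4175 and 4146 in untreated knock-in, and 4533 and 4533 in knock-in with LPS. The wild-type LPS libraries were lowest, the knock-in LPS libraries highest, and no 2 groups overlapped. The sum of genes with a match to KRAB was 1393 and 1398 CPM untreated and 846 and 826 with LPS, while the genes without a match summed to 2870 and 2932 untreated and 2836 and 2751 with LPS. The sum without a match holds abundant genes that rose, such as Zfp263 and Zfp703. Zfp263 had a KRAB hit too weak to count as a match (E-value 0.019), so its place in this sum depends on the limit. Without the 10 genes of highest mean, all others together summed to 3302 and 3323 CPM in untreated wild type and 2422 and 2385 with LPS. In the knock-in the KRAB sum went from 1337 and 1293 CPM to 1494 and 1457 CPM with LPS. For single genes, the 2 wild-type LPS libraries were both below the other 6 in 191 of 251 genes (76.1%), against 28.5% of the 11919 genes tested. Both knock-in LPS libraries were above the other 6 in 97 genes (38.6%), against 26.5%.

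**Figure D1:**
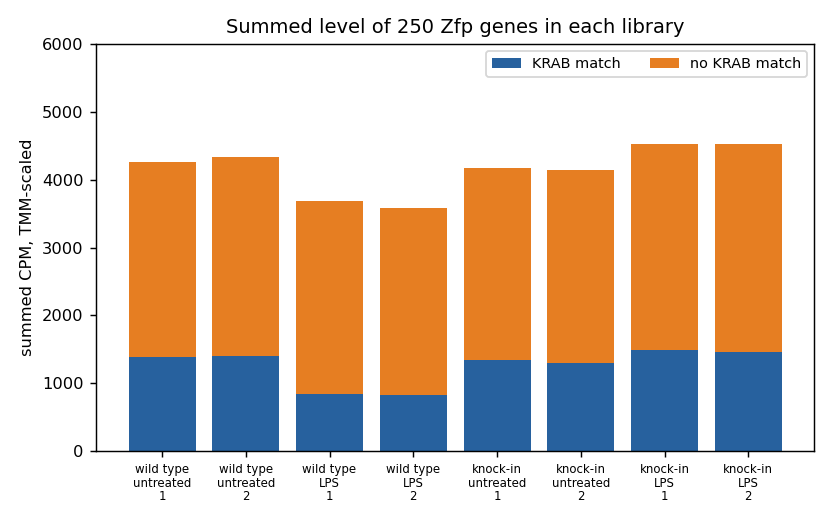
Summed CPM of the 250 genes with a coding sequence in each library, split into those with (blue) and without (orange) a KRAB match. The blue part falls from 1393 and 1398 to 846 and 826 CPM with LPS in wild type, while the orange part lies between 2751 and 3070 CPM in every library.

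In wild type, LPS lowered most of these genes. With limma on log2(CPM + 1), a scale that understates the change of low genes, 194 of 251 fell and 20 rose at an adjusted p under 0.05, while 30.7% and 26.8% of all genes tested were called lower and higher. The median log2 change was -0.74, against -0.03 over all genes tested, and the ratio of the LPS mean to the untreated mean had a median of 0.558. That ratio was under 0.5 in 110 genes and over 2 in 9. Among the 191 genes with a mean of 2 or more in each group, 137 fell and 19 rose, with a median of -0.55. The scale bears on this background. Without a normalization factor, all genes shifted by a median of -0.30, calls were 13.5% higher and 64.5% lower over all genes, and 14 of the 251 genes rose while 224 fell. The 251 genes then lay -0.68 from the median of all genes, against -0.70 with the deposited scaling. With quantile normalization, 35.4% of all calls were higher, against 46.6% with the deposited scaling. Of all genes tested, 21.3% were then called higher and 38.9% lower, and 23 of the 251 genes rose while 187 fell.

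Among the genes that rose in wild type, Zfp263, a DNA-binding protein with a SCAN domain, changed most. It stood at 62.7 and 59.1 CPM in untreated wild type, 269.9 and 253 in wild type with LPS, 60.8 and 59.6 in untreated knock-in and 67.2 and 64.0 in knock-in with LPS. The wild-type LPS libraries were far above the other 6, which lay between 59.1 and 67.2. The LPS mean was 4.29 times the untreated mean, a log2 change of 2.08 (SE 0.05, adjusted p = 1.34e-20). Zfp281, a factor that binds GC-rich promoters and is known from embryonic stem cells, stood at 37.2 and 37.8 CPM in untreated wild type, 104 and 98.6 in wild type with LPS, 33.6 and 35.2 in untreated knock-in and 44.2 and 44.9 in knock-in with LPS. Its wild-type LPS libraries were again highest, and the knock-in LPS libraries were second and did not overlap the untreated ones. The log2 change was 1.41 (SE 0.06, adjusted p = 2.54e-16) in wild type and 0.36 (SE 0.06, adjusted p = 1.43e-05) in the knock-in. Zfp703, a corepressor of the NET family, stood at 84.1 and 77.0 CPM in untreated wild type, 175 and 172 in wild type with LPS, 81.3 and 83.3 in untreated knock-in and 81.7 and 81.7 in knock-in with LPS. The 6 libraries other than wild type with LPS lay between 77.0 and 84.1, and the log2 change in wild type was 1.10 (SE 0.05, adjusted p = 4.32e-15). Zfp800 stood at 12.9 and 13.3 CPM in untreated wild type, 42.4 and 37.2 in wild type with LPS, 11.3 and 12.2 in untreated knock-in and 13.7 and 12.1 in knock-in with LPS. Only wild type with LPS was above 14 CPM, and the log2 change was 1.53 (SE 0.09, adjusted p = 1.86e-13).

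Genes were ranked by log2 change among those with a group mean of 5 CPM or more, and the next 4 risers were smaller. Zfp719 went from 6.52 and 5.88 CPM in the untreated to 13.8 and 14.1 CPM in the LPS libraries of wild type, a log2 change of 1.06. Zfp607 changed by 0.97, Zfp275 by 0.97 and Zfp575 by 0.96 on the log2 scale, with limma adjusted p between 6.12e-12 and 2.72e-07, and their groups did not overlap. Zfp719 and Zfp607 have a KRAB match, and the other 6 of these 8 do not. Of these 6, Zfp263 had a weaker KRAB hit (E-value 0.019) that missed the limit for a match. Zfp275 is 1 of 2 X-linked genes in the set. Zfp658, the neighbour of Zfp719, rose from 3.16 and 3.73 CPM in the untreated to 6.76 and 6.78 CPM in the LPS libraries of wild type, a log2 change of 0.81 (SE 0.12, adjusted p = 4.92e-06). Zfp382 rose by 0.91, Zfp558 by 1.02 and Zfp516, a partner of PRDM16 in brown fat, by 0.81 on the log2 scale. The smallest called rises, Zfp488 with 0.16 and Zfp871 with 0.17, did not hold, since Zfp488 turned to -0.13 with quantile normalization and to -0.14 without a factor, and Zfp871 to -0.12 without a factor. Leaving out a library also ended both calls, with limma adjusted p of 0.465 (wild-type untreated replicate 1) and 0.294 (wild-type LPS replicate 1) for Zfp488, and of 0.115 (wild-type untreated replicate 2) and 0.0829 (wild-type LPS replicate 1) for Zfp871.

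The strongest falls in wild type took genes to low levels. Zfp292, a large zinc finger protein without a KRAB match, stood at 26.1 and 24.9 CPM in untreated wild type, 6.76 and 4.07 in wild type with LPS, 21.2 and 22.2 in untreated knock-in and 20.8 and 18.8 in knock-in with LPS. The wild-type LPS libraries lay below all others, at a mean ratio of 0.213 to untreated, and the log2 change was -2.08 (SE 0.12, adjusted p = 3.30e-13). The other 7 of the 8 largest falls among genes with a group mean of 5 CPM or more have a KRAB match. Zfp157 stood at 8.87 and 8.93 CPM in untreated wild type, 1.53 and 1.20 in wild type with LPS, 9.60 and 9.32 in untreated knock-in and 8.41 and 8.79 in knock-in with LPS. Its wild-type LPS libraries were under 1.6 CPM and all others over 8, with a log2 change of -2.07 (SE 0.11, adjusted p = 3.69e-14). Zfp324 fell from 6.70 and 6.73 CPM in the untreated to 0.754 and 0.972 CPM in the LPS libraries of wild type. Zfp316 fell from 8.73 and 9.05 CPM in the untreated to 1.73 and 1.09 CPM in the LPS libraries of wild type. The log2 changes were -2.05 and -2.05, and for Zfp316 the knock-in LPS libraries, at 10.5 and 12.2 CPM, were the 2 highest of the 8. Zfp60 (-1.82), Zfp472 (-1.79), Zfp90 (-1.79) and Zfp760 (-1.77) completed the 8 by log2 change. Zfp90 is the most abundant of them by mean CPM and fell from 33.8 and 37.6 CPM in the untreated to 10.4 and 8.91 CPM in the LPS libraries of wild type. The limma adjusted p of these 4 lay between 1.35e-15 and 2.65e-11, and in each the wild-type LPS libraries were below the other 6.

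**Figure D2:**
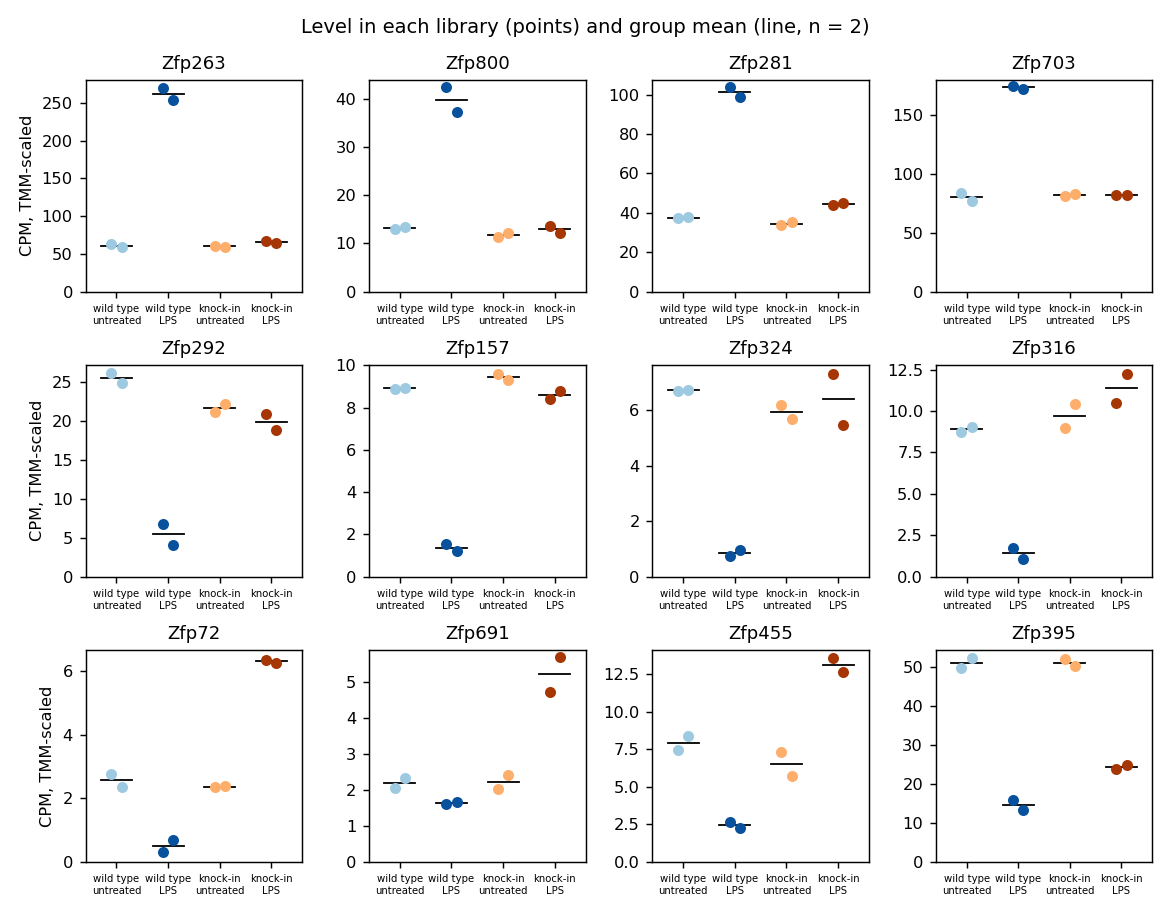
CPM of 12 genes in each of the 8 libraries (points) with group means (lines, n = 2), with a separate axis from 0 for each gene. The top row rises with LPS in wild type (Zfp263 to 269.9 and 253 CPM), the middle row falls there, and the bottom row holds genes that changed with LPS in the knock-in.

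In the knock-in the same treatment went with a small change, mostly upward. Of the 251 genes, 94 rose and 19 fell, while 28.5% and 28.3% of all genes tested were called higher and lower. The median log2 change was 0.15, against 0.02 over all genes. The ratio of means had a median of 1.13, was over 2 in 5 genes and under 0.5 in 1. Among the 191 genes with a mean of 2 or more in each group, 72 rose and 17 fell. Counts here depended on single libraries, though a fit without 1 library leaves only 1 in its group. The share of all genes called in those fits is not given here. The number of risers lay between 66 and 98 when each library was left out in turn, and the number of genes that fell dropped to 12 without untreated knock-in replicate 1 and to 11 without knock-in LPS replicate 1.

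Zfp72 changed most among the genes that rose in the knock-in and reached 5 CPM. It stood at 2.77 and 2.36 CPM in untreated wild type, 0.302 and 0.701 in wild type with LPS, 2.34 and 2.38 in untreated knock-in and 6.36 and 6.26 in knock-in with LPS. The knock-in LPS libraries were highest and the wild-type LPS libraries lowest, with no overlap with the untreated ones on either side. Its log2 change was 1.12 (SE 0.14, adjusted p = 3.68e-07) in the knock-in and -1.26 (SE 0.14, adjusted p = 4.02e-08) in wild type. Zfp691 stood at 2.06 and 2.34 CPM in untreated wild type, 1.61 and 1.67 in wild type with LPS, 2.04 and 2.42 in untreated knock-in and 4.74 and 5.70 in knock-in with LPS. Only the knock-in LPS libraries were above 3 CPM, with a log2 change of 0.94 (SE 0.13, adjusted p = 1.99e-06). Zfp455 went from 7.33 and 5.74 CPM in the untreated to 13.5 and 12.7 CPM in the LPS libraries of the knock-in, a log2 change of 0.91, and fell in wild type by 1.38 on the same scale. Zfp346, which binds double-stranded RNA, went from 13.1 and 11.8 CPM in the untreated to 19.7 and 22.9 CPM in the LPS libraries of the knock-in. Its log2 change was 0.73 in the knock-in and -1.03 in wild type. Zfp456 rose by 0.70, Zfp503 by 0.70, Zfp319 by 0.69 and Zfp790 by 0.69 on the log2 scale, with limma adjusted p between 1.67e-08 and 7.95e-05. Reads of Zfp456 and its neighbour Zfp429, which rose by 0.50, could be shared, since their coding sequences are near-identical to each other and to Rsl1. Zfp507, a listed partner of chromatin complexes whose group means stayed under 5 CPM, had the largest rise of all 251 on the log2 scale, from 1.86 and 1.29 CPM in the untreated to 4.53 and 5.15 CPM in the LPS libraries of the knock-in (1.19 (SE 0.14, adjusted p = 1.86e-07)).

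Zfp395 fell in both genotypes. It stood at 49.7 and 52.3 CPM in untreated wild type, 15.9 and 13.3 in wild type with LPS, 51.8 and 50.1 in untreated knock-in and 23.6 and 24.7 in knock-in with LPS. All 4 LPS libraries were under 25 CPM and all 4 untreated ones over 49. The log2 change was -1.74 (SE 0.08, adjusted p = 5.98e-16) in wild type and -1.05 (SE 0.08, adjusted p = 2.48e-11) in the knock-in, where it was the only gene with a ratio of means under 0.5. Zfp40 fell in the knock-in from 6.38 and 4.47 CPM in the untreated to 2.89 and 2.88 CPM in the LPS libraries of the knock-in, a log2 change of -0.71 (SE 0.14, adjusted p = 1.74e-04). Zfp948 (-0.45), Zfp704 (-0.45), Zfp367 (-0.40) and Zfp120 (-0.33) fell by less on the log2 scale, and of these Zfp948 was not called in wild type. Zfp523 and Zfp433 had log2 changes of -0.36 and -0.35 in the knock-in, with limma adjusted p of 0.0115 and 0.0355. The call of Zfp523 ended without knock-in LPS replicate 1 (adjusted p = 0.211) or untreated knock-in replicate 2 (0.0842). That of Zfp433 ended without untreated knock-in replicate 1 (0.379), knock-in LPS replicate 1 (0.0721) or knock-in LPS replicate 2 (0.188).

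Without LPS no difference between knock-in and wild type passed the limma test in any of the 251 genes, while 0.00839% of all genes tested were called higher and 0% lower. At an unadjusted p under 0.05 there were 29 of the 251 genes with limma, 29 with edgeR and 17 with DESeq2. Over all genes tested, 1617 of 11919 had such a p-value with limma. Neither edgeR nor DESeq2 called a gene of the set. The median log2 difference over the 251 genes was -0.05. The 3 smallest p-values belonged to Zfp654, Zfp189 and Zfp74. Zfp654 stood at 13.3 and 12.9 CPM in untreated wild type, 14.3 and 15.2 in wild type with LPS, 9.92 and 10.2 in untreated knock-in and 11.7 and 10.8 in knock-in with LPS. Both untreated knock-in libraries were below both wild-type ones, with a log2 difference of -0.35 (SE 0.09, adjusted p = 0.129). Zfp189 had a log2 difference of -0.39 (SE 0.12, adjusted p = 0.188) and Zfp74 of -0.35 (SE 0.11, adjusted p = 0.197). Leaving out wild-type untreated replicate 1 gave 2 higher and 1 lower calls. Leaving out any other library gave none.

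With LPS the genotypes differed in most of the genes. The knock-in was higher in 201 of 251 and lower in 25, while 38.5% and 36.8% of all genes tested were called higher and lower. The median log2 difference was 0.80, against 0.02 over all genes. Among the 191 genes with a mean of 2 or more in each group, 144 were higher and 24 lower. The largest differences were in Zfp316, at 10.5 and 12.2 CPM in knock-in with LPS against 1.73 and 1.09 in wild type with LPS (log2 difference 2.37 (SE 0.13, adjusted p = 2.37e-14)), and in Zfp72 (2.30), Zfp472 (2.15), Zfp61 (2.04), Zfp455 (2.04), Zfp60 (2.03), Zfp709 (2.02) and Zfp157 (2.02). Lower in the knock-in were Zfp263, at 67.2 and 64.0 CPM against 269.9 and 253 (-1.98 (SE 0.05, adjusted p = 3.60e-20)), Zfp800 (-1.55), Zfp281 (-1.17), Zfp658 (-1.12), Zfp703 (-1.08), Zfp382 (-0.94), Zfp575 (-0.83) and Zfp719 (-0.68). These 16 genes were named from called genes whose groups did not overlap. The same LPS libraries enter the comparisons above, so these are other views of 1 set of values.

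The LPS effect itself differed between genotypes in 211 genes. This interaction, the log2 LPS change of the knock-in less that of wild type, was higher in 193 and lower in 18, while 31.8% and 31.8% of all genes tested were called higher and lower. The median was 0.83, against 0.01 over all genes. Among the 191 genes with a mean of 2 or more in each group, the interaction was higher in 136 and lower in 17, with a median of 0.67. Crossing the calls of the LPS effects, 70 genes fell in wild type and rose in the knock-in, 110 fell in wild type and were not called in the knock-in, and 14 fell in both. Of the 20 that rose in wild type, 10 rose in the knock-in too, 8 were not called there, and 2, Zfp658 and Zfp871, were called lower there. In the rest, 14 were called higher and 3 lower only in the knock-in test, and 20 were called in neither. Taken singly, 30.7% of all genes tested were lower in wild type and 28.5% were higher in the knock-in. How many of all genes tested lie in each crossed class was not counted, so the classes are a description only.

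**Figure D3:**
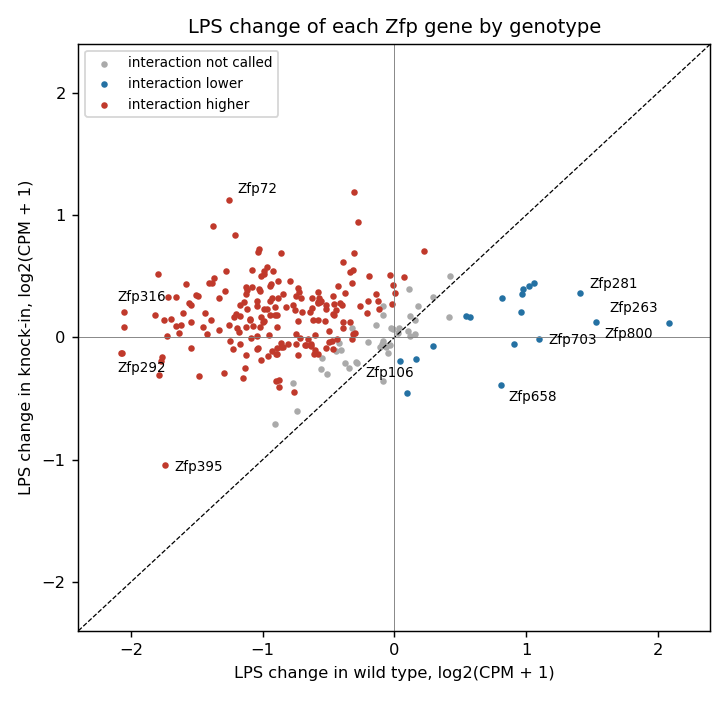
LPS change of each of the 251 genes in wild type (x axis) and knock-in (y axis) on the log2(CPM + 1) scale, coloured by the limma call of the interaction, with the dashed line marking equal changes. Most genes sit left of 0 on the x axis (median -0.74) and near or above 0 on the y axis (median 0.15).

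The 70 genes that moved in opposite directions ranged in mean from Zfp82 (2.16 CPM) to Zfp740. The knock-in call of Zfp82 ended without untreated knock-in replicate 2 (adjusted p = 0.0769) or knock-in LPS replicate 2 (0.101). Zfp740 stood at 55.4 and 50.2 CPM in untreated wild type, 31.2 and 30.0 in wild type with LPS, 53.3 and 51.1 in untreated knock-in and 63.0 and 62.7 in knock-in with LPS. Its wild-type LPS libraries were lowest and its knock-in LPS libraries highest, and the log2 changes were -0.77 and 0.26. The 110 genes called only in wild type reached up to Zfp91, described as a ubiquitin ligase of the NF-kB-inducing kinase. Zfp91 stood at 129 and 131 CPM in untreated wild type, 107 and 102 in wild type with LPS, 125 and 118 in untreated knock-in and 124 and 124 in knock-in with LPS, a log2 change of -0.32 (SE 0.05, adjusted p = 7.66e-06) in wild type and of 0.03 in the knock-in. Its wild-type LPS libraries were below the other 6. The 14 genes that fell in both ranged up to Zfp106, an RNA-binding protein and the most abundant of the set without regard to length. Zfp106 stood at 155 and 163 CPM in untreated wild type, 138 and 122 in wild type with LPS, 149 and 147 in untreated knock-in and 128 and 128 in knock-in with LPS, with log2 changes of -0.29 and -0.20 and an interaction of 0.09 (SE 0.08, adjusted p = 0.338). Of the 10 genes that rose in both, Zfp330 changed by 0.29 and 0.33 and Zfp429 by 0.42 and 0.50. The call of Zfp429 in wild type ended without a normalization factor (0.15, adjusted p = 0.147). Zfp658 was called higher in wild type and had -0.39 (SE 0.12, adjusted p = 0.00991) in the knock-in, a call that ended without untreated knock-in replicate 1 (0.135) or knock-in LPS replicate 2 (0.083). The knock-in call of Zfp871 (-0.17) ended without untreated knock-in replicate 1 (0.157), knock-in LPS replicate 1 (0.054) or knock-in LPS replicate 2 (0.0693).

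**Figure D4:**
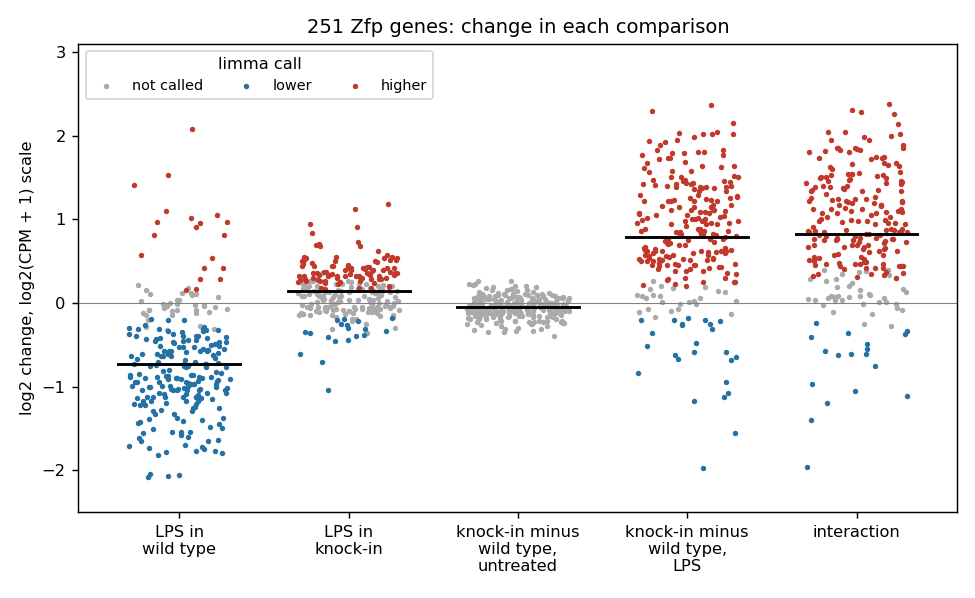
Log2 change of each of the 251 genes in the 5 comparisons, coloured by the limma call, with the median as a black line. Medians are -0.74, 0.15, -0.05, 0.80 and 0.83 from left to right, and no gene is called in the untreated comparison.

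By role, 8 KRAB proteins known for silencing retroelements or guarding imprints were listed, and the 5 of them among the 251 genes all fell in wild type. Of all 142 genes with a KRAB match 124 fell there (87.3%), so the 5 do not stand out from these. Over all genes tested 30.7% were called lower. Zfp809, which represses murine leukaemia virus sequences, went from 6.63 and 9.09 CPM in the untreated to 2.49 and 3.64 CPM in the LPS libraries of wild type (log2 change -1.13 (SE 0.16, adjusted p = 1.09e-06)). Zfp445, a guardian of imprinted genes, went from 60.4 and 57.9 CPM in the untreated to 39.6 and 37.4 CPM in the LPS libraries of wild type (log2 change -0.61). Neither was called in the knock-in, where the log2 changes were 0.09 and 0.02. Zfp932, a repressor of endogenous retroviruses, changed by -0.47 in wild type and rose by 0.34 in the knock-in, and its reads could be shared with its near-identical copy Gm15446. Zfp568, which represses a placental Igf2 transcript, had -0.38 and 0.36, and Zfp689 had -0.46 and 0.27. Single libraries decided calls here. Without wild-type LPS replicate 1 the wild-type adjusted p was 0.163 for Zfp568 and 0.0714 for Zfp689, and without wild-type untreated replicate 2 it was 0.0517 for Zfp568. The knock-in call of Zfp568 ended without untreated knock-in replicate 2 (0.115) or knock-in LPS replicate 2 (0.244). Of the other 3 listed genes, Zfp57 had group means of at most 0.0353 CPM, Zfp819 of at most 0.193 and Zfp708 of at most 1.94, so they are outside the set. Zfp708 was still high enough to be tested and had a log2 change of -1.14 in wild type (adjusted p = 9.41e-07).

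Of 8 proteins that act on RNA or ribosomes, 2 rose and 3 fell in wild type, and 3 rose and 2 fell in the knock-in. These shares are near those of all genes tested (26.8% higher and 30.7% lower for wild type, 28.5% and 28.3% for the knock-in). The largest changes of the 8 were those of Zfp346, which fell by 1.03 on the log2 scale in wild type but rose by 0.73 in the knock-in, with an interaction of 1.75 (SE 0.15, adjusted p = 2.70e-10). Zfp622, which takes part in maturation of the large ribosomal subunit, went from 44.6 and 43.2 CPM in the untreated to 66.7 and 65.2 CPM in the LPS libraries of wild type (log2 change 0.58 (SE 0.06, adjusted p = 1.99e-08)). In the knock-in it had 0.16, a call that ended without knock-in LPS replicate 2 (adjusted p = 0.379), untreated knock-in replicate 1 (0.15) or untreated knock-in replicate 2 (0.0526). Zfp598, the ubiquitin ligase that senses collided ribosomes, rose by 0.42 in wild type, a call that ended without a normalization factor (0.13, adjusted p = 0.141). Zfp593, a nucleolar factor of ribosome assembly, rose by 0.40 in the knock-in. Zfp830, a spliceosome component, fell by 0.47 on the log2 scale in wild type. Zfp326, of a complex that couples splicing to elongation, had log2 changes of -0.05 and -0.13 and was called in neither genotype. Zfp706 had -0.20 in the knock-in, where the call ended without knock-in LPS replicate 1 (0.0547).

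Among 10 partners of chromatin complexes, 1 rose and 4 fell in wild type, where 26.8% and 30.7% of all genes tested did. In the knock-in 5 rose and none fell, beside 28.5% and 28.3% of all genes. Zfp516, which also binds LSD1, was the riser in wild type. It stood at 57.8 and 52.6 CPM in untreated wild type, 104 and 91.9 in wild type with LPS, 55.5 and 53.1 in untreated knock-in and 68.7 and 67.7 in knock-in with LPS. Wild type with LPS was highest, knock-in with LPS second, and neither overlapped the untreated libraries. The log2 changes were 0.81 (SE 0.06, adjusted p = 4.69e-11) and 0.32 (SE 0.06, adjusted p = 1.17e-04). Zfp217, a subunit of LSD1-CoREST complexes, had log2 changes of -0.03 and 0.08, with all 8 libraries between 60.0 and 65.2 CPM. Zfp644, a partner of the methyltransferase G9a, fell in wild type from 24.2 ± 1.12 to 10.5 ± 1.01 CPM (SD, n = 2 in each group) (log2 change -1.13). Zfp219 fell by 0.74 and Zfp687 by 0.39 on the log2 scale there. Zfp609 had -0.19 in wild type, where the call ended without wild-type untreated replicate 1 (adjusted p = 0.088), wild-type untreated replicate 2 (0.0507) or wild-type LPS replicate 2 (0.25), and with edgeR (0.0755) and DESeq2 (0.0892). It rose by 0.50 in the knock-in, as did Zfp592 by 0.36. Zfp653 had 0.26, and its call ended without untreated knock-in replicate 1 (0.213) or knock-in LPS replicate 2 (0.277). Zfp451, a SUMO ligase, was called in neither genotype.

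Of 9 factors that bind promoters or enhancers directly, 1 rose and 3 fell in wild type, and 4 rose and 1 fell in the knock-in. Over all genes tested the shares were 26.8% higher and 30.7% lower for wild type, and 28.5% and 28.3% for the knock-in, so the lower count in wild type is near the background. Zfp281 was the riser in wild type and Zfp523 the gene called lower in the knock-in, both described above. Zfp148, which like Zfp281 binds GC-rich DNA, went the other way in wild type, from 43.9 and 44.9 CPM in the untreated to 29.6 and 26.1 CPM in the LPS libraries of wild type (log2 change -0.66 (SE 0.07, adjusted p = 8.98e-09)). Zfp362 fell by 1.18 on the log2 scale there. Zfp143, an activator of many promoters, rose in the knock-in from 14.1 ± 0.523 to 20.2 ± 0.239 CPM (SD, n = 2 in each group) (log2 change 0.49) and was not called in wild type (0.07). Zfp384 had 0.17 in the knock-in, a call that ended without untreated knock-in replicate 2 (adjusted p = 0.0958), without knock-in LPS replicate 1 (0.0758), with quantile normalization (0.0761) and without a factor (0.0618). Zfp335 and Zfp318 were called in neither genotype. Zfp410, known as an activator of the NuRD gene Chd4, stood at 18.7 and 17.5 CPM in untreated wild type, 13.8 and 12.8 in wild type with LPS, 15.5 and 18.2 in untreated knock-in and 20.1 and 21.2 in knock-in with LPS. Wild type with LPS was lowest and knock-in with LPS highest, with log2 changes of -0.42 (SE 0.09, adjusted p = 2.79e-04) and 0.28 (SE 0.09, adjusted p = 0.009). The knock-in call ended without untreated knock-in replicate 1 (0.192) or knock-in LPS replicate 2 (0.082). Chd4 moved the other way in each genotype, with log2 changes of 0.71 (adjusted p = 1.05e-12) and -0.28 (1.25e-05). Of the NET family corepressors, Zfp703 rose in wild type and Zfp503 fell there by 1.04 on the log2 scale and rose by 0.70 in the knock-in. Zfp207, a kinetochore protein, was called in neither genotype (0.12 and 0.02), beside the cell cycle sums given above.

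Genes on a list of KRAB cofactors and other chromatin genes, Kdm1a and Uhrf1 among them, moved in both directions. Of 19 measured genes, 4 rose and 11 fell in wild type (26.8% and 30.7% of all genes tested) and 4 rose and 8 fell in the knock-in (28.5% and 28.3% of all genes). Their summed level was 1095 and 1120 CPM in untreated wild type, 1178 and 1163 in wild type with LPS, 1084 and 1071 in untreated knock-in and 946 and 950 in knock-in with LPS. Trim28, the KRAB scaffold, had group means of 94.9, 81.3, 98.1 and 105 CPM in the same order. It fell in wild type by 0.22 on the log2 scale (adjusted p = 0.00176) and had 0.10 in the knock-in. Setdb1 fell by 0.58 in wild type and by 0.27 in the knock-in, and Atf7ip, its nuclear partner, fell by 0.97 in wild type and rose by 0.70 in the knock-in. The 3 heterochromatin protein 1 genes differed in the knock-in. In wild type and knock-in, in that order, Cbx1 had log2 changes of -0.37 and 0.22, Cbx3 of -0.32 and -0.58, and Cbx5 of -0.43 and -0.67, all called by limma. The largest change of the list was that of Uhrf1, which binds hemimethylated DNA, at -2.06 in the knock-in (adjusted p = 1.69e-17) and 0.07 in wild type, beside the cell cycle sums given above.

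What the genes share with each other was described by sequence features that the rule did not use. A KRAB profile matched 142 of the 250 genes with a coding sequence. Weaker hits in Zfp263 (E-value 0.019) and Zfp72 (0.0052) missed the limit, and both genes were counted as without a match. Of these 142 genes, 124 fell and 8 rose with LPS in wild type, with a median log2 change of -0.90, and of the 108 without a match, 69 fell and 12 rose, with a median of -0.41. Over all genes tested 30.7% were called lower and 26.8% higher, with a median of -0.03. The matched genes were lower in level, with a median of 6.68 CPM against 18.0. Across the 251 genes the wild-type log2 change went with the log2 mean level (Pearson r = 0.43, Spearman rho = 0.45, a description, since the genes share the same libraries). That mean is the value the genes were chosen by and includes the wild-type LPS libraries, so a fall there also lowers it. Part of the relation is thus built in. Within genes of 5 to 20 CPM, 66 of 78 with and 33 of 47 without a KRAB match fell, with medians of -0.86 and -0.52. In the knock-in 49 of 142 and 45 of 108 rose, with medians of 0.16 and 0.14, where 28.5% of all genes tested were called higher. No test of the difference between these subsets was made.

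**Figure D5:**
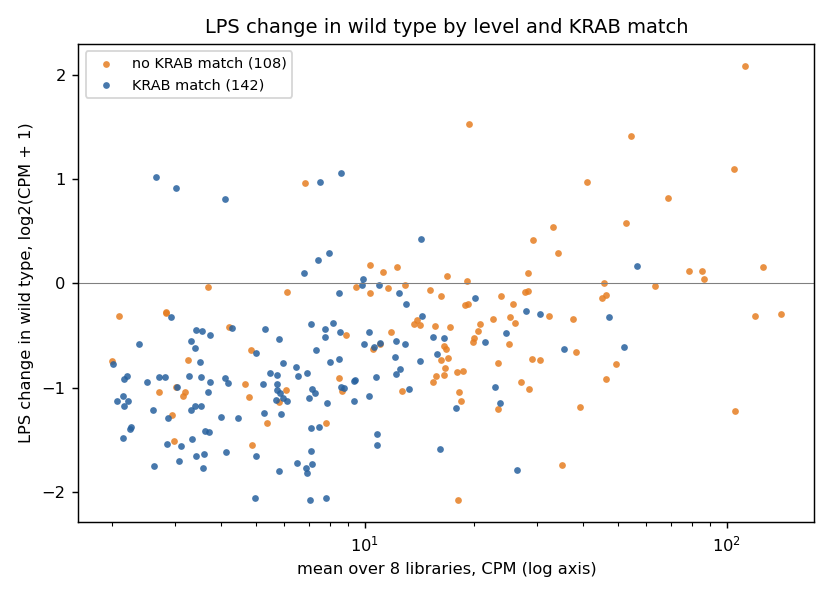
LPS change in wild type on the log2(CPM + 1) scale against the mean over 8 libraries (log axis) for the 142 genes with (blue) and 108 without (orange) a KRAB match. Genes with a lower mean show larger falls, and that mean includes the wild-type LPS libraries. The orange points extend to higher levels (median 18.0 against 6.68 CPM).

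Finger number ranged from 0 to 36 (Zfp142), with 7 genes, among them Zfp703 and Zfp503, without a match to the spacing searched. Of 136 genes with 10 or more fingers, 117 fell and 8 rose in wild type. Of 34 with 3 or fewer, 19 fell and 6 rose. Over all genes tested 30.7% were called lower and 26.8% higher there. Across 250 genes the wild-type log2 change and the finger number had a Pearson r of -0.15 and a Spearman rho of -0.21, a weak relation.

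Many of the genes lie side by side. On GENCODE vM21, 102 have another of the 251 as a neighbour among protein-coding genes, in 38 runs of up to 6 genes. In the run of Zfp61, Zfp93, Zfp94, Zfp108, Zfp109 and Zfp111 all 6 have a KRAB match and all fell in wild type, by log2 changes from -1.72 to -0.70, and 3 rose in the knock-in. The run of Zfp51, Zfp52, Zfp53, Zfp54, Zfp677 and Zfp948 had 5 that fell, with Zfp948 at 0.10. In the run of Zfp212, Zfp282, Zfp398, Zfp746, Zfp777 and Zfp956 5 fell. Neighbours could also differ, as Zfp59 (-0.88) and Zfp607 (0.97) did in wild type, and Zfp236 (-0.08) and Zfp516. Of the 102 genes with such a neighbour, 87 fell, and of the 149 without, 107. Zbtb, Zkscan and Zscan genes, zinc finger genes outside the naming rule, showed 28 of 48 lower and 10 higher in wild type with a median of -0.41, and 18 higher and 2 lower in the knock-in. Of all genes tested, 30.7% were called lower and 26.8% higher in wild type, and 28.3% lower and 28.5% higher in the knock-in.

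Reads can be uncertain for some genes. A near-identical coding sequence was found for 12, exons of another gene overlap 64 on the opposite strand and 22 on the same strand, and whether counting used the strand is not given in the sources used here. Zfp800, Zfp703, Zfp575, Zfp90, Zfp346, Zfp319 and Zfp367 are among those with an overlap on the opposite strand. Among the 166 genes without any of these, 129 fell and 15 rose in wild type, and 58 rose and 9 fell in the knock-in. The interaction was higher in 128 of them and lower in 13. Over all genes tested, 30.7% fell and 26.8% rose in wild type, and 28.5% rose and 28.3% fell in the knock-in. The interaction was called higher in 31.8% of all genes and lower in 31.8%. Zfp182, the other X-linked gene, had log2 changes of -0.93 in wild type, where it was called lower, and of -0.11 in the knock-in, beside the difference in sex.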

How the data were processed

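RNA from 8 macrophage libraries, 2 in each of 4 groups, was measured by RNA-seq. The tools were TopHat2 2.0.9, bedtools and edgeR on the mouse build mm9, per the submitters' processing notes. How reads were assigned to genes, with which strand setting and annotation, is not given in the sources used here. The deposited signal values step in whole multiples of the worth of 1 read in each library, so they are read counts scaled to the library total and a normalization factor, here called CPM. Whole reads were recovered for 100% of values (tolerance 0.001 reads).

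Values were analysed with limma 3.58.1 in R 4.3.3 on log2(CPM + 1), in 1 model of 4 groups with a mean-variance trend (residual degrees of freedom 4, prior 19.1), over the 11919 genes at 1 CPM or more in at least 2 libraries. P-values were adjusted by Benjamini-Hochberg over all of these, and a call needs an adjusted p under 0.05. edgeR 4.0.16 (quasi-likelihood) and DESeq2 1.42.0 were run on the recovered reads as alternatives. Over all genes tested, edgeR called 29.6% higher and 27.8% lower with LPS in wild type and 27.7% and 29.2% in the knock-in. The limma step was tested on simulated data.

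Named genes were up to 8 in each direction and comparison with the largest log2 change among called genes whose groups did not overlap and whose higher group mean was 5 CPM or more, the genes of the role lists, the genes at the ends of each class, and those around the level threshold. The 251 genes and the lists were chosen with earlier results of these data known. Gene models came from GENCODE vM21 on GRCm38, matched by symbol (246 by current and 5 by older symbols), and served only for names, neighbours, overlaps, lengths and sequence features, not for coordinates of the deposited values. KRAB domains were found with HMMER 3.4 (E-value limit 0.0001) and near-identical coding sequences with BLAST 2.17.0 (95% identity over 50% of the length). Replicate numbers were not used to pair samples in the main model. Correlations of deviations from the group means for same-numbered libraries lay between -0.117 and 0.137. With 2 libraries in a group, they cannot settle whether samples were paired.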

Additional observations from a re-analysis of the deposited data

Results flagged for a closer look

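The 16 genes named for the difference in LPS effect between wild type and knock-in were taken from those called by the limma interaction test, so that they all pass it follows from the choice. Values are the log2 LPS change of the knock-in less that of wild type. They were 2.38 for Zfp72, 2.31 for Zfp472, 2.29 for Zfp455, 2.26 for Zfp316, 2.14 for Zfp324, 2.04 for Zfp61, 2.02 for Zfp709 and 2.00 for Zfp60. On the other side they were -1.96 for Zfp263, -1.40 for Zfp800, -1.20 for Zfp658, -1.11 for Zfp703, -1.05 for Zfp281, -0.96 for Zfp382, -0.75 for Zfp575 and -0.62 for Zfp719. The knock-in LPS libraries also differed from the other 6 in sex-linked transcripts and in the early LPS response, and the part of either in these differences was not tested.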

How the results depend on the processing

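Counts of higher and lower genes stayed within 1.5 times their value under the alternatives tried, except as given here. Without a normalization factor, 15 genes were lower in the knock-in with LPS and 11 had a lower interaction. In that setting 67.6% of all calls between genotypes with LPS and 70.7% of all interaction calls were higher, against 51.1% and 50%. In the untreated comparison DESeq2 called 0.227% of all genes higher and 0.31% lower, against 0.00839% and 0% with limma. Leaving out each library in turn gave, in wild type, 17 to 21 higher and 190.0 to 194 lower genes with medians from -0.74 to -0.70; in the knock-in 66 to 98 and 11 to 21 (0.14 to 0.17); untreated 0 to 2 and 0 to 1 (-0.066 to -0.042); with LPS 193 to 201 and 18 to 26 (0.74 to 0.81); and for the interaction 185 to 194 and 16 to 20 (0.80 to 0.85).

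Medians kept their sign and moved as follows. In wild type the median was -0.81 with edgeR, -0.81 with DESeq2, -0.78 and -0.65 with pseudocounts of 0.5 and 2, -0.64 with a filter at 5, -0.63 with quantile normalization, -0.71 with median-of-ratios scaling, -0.98 without a factor, -0.55 for genes at 2 or more in each group and -0.58 at a mean of 5 or more. In the knock-in it was 0.18 with DESeq2, 0.18 with quantile normalization, 0.11 without a factor, 0.13 at 2 or more in each group and 0.16 at 5 or more. Untreated it was -0.067 with DESeq2 and -0.071 without a factor. Between genotypes with LPS it was, in the order edgeR, DESeq2, pseudocounts 0.5 and 2, filter at 5, quantile, no factor, 2 or more in each group and 5 or more, 0.86, 0.88, 0.85, 0.68, 0.69, 0.71, 0.97, 0.61 and 0.64. For the interaction it was 0.89, 0.91, 0.89, 0.74, 0.78, 0.75, 1.05, 0.67 and 0.76 in that order. The cause was not tested.

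Among named genes, Zfp488 turned to -0.13 (quantile) and -0.14 (no factor) and Zfp871 to -0.12 (no factor) in wild type. Of 122 pairs of a named gene and a comparison, 20 lost the call under at least 1 alternative. With the replicate number as a block, 20 genes were higher and 194 lower with LPS in wild type, 92 and 20 with LPS in knock-in cells, 0 and 0 untreated, 200 and 25 with LPS, and 192 and 18 for the interaction. Without the knock-in LPS libraries, an alternative chosen after seeing the data, 20 genes rose and 193 fell in wild type. The lowest read count of any of the genes was 8 and 10 in the wild-type LPS libraries and 49 to 80 in the others, so values of the lowest genes carry the most counting error in wild type with LPS.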
